A study of Mus musculus with 6 samples.

Results

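Heat shock proteins, their DNAJ partners and a set of co-chaperones were described in cultured stromal cells of mouse visceral fat after 3 days with irisin/HSP90α or PBS. The members were all rows of the gene count table whose symbol marks an HSP90, HSP70 (Hspa), small heat shock (Hspb), Hspd1, Hspe1, Hsph1, DNAJA, DNAJB or DNAJC gene, plus Stip1, Hsf1, Hsf2, Bag3, St13, Ahsa1 and Cdc37, with pseudogenes (symbols with -ps) left out. This gave 80 genes of 55011 in the table. Of these, 68 had enough counts to be tested, among 12296 genes tested in all. The 3 control libraries came from Il33-EGFP- stromal cells given phosphate-buffered saline (PBS), and the 3 treated libraries from Il33-EGFP- stromal cells given irisin/HSP90α at 10 nM, a group called irisin in the sample titles and here. All 6 came from visceral fat (labelled VAT, and eWAT in the design text) and lacked the EGFP signal that reports Il33, an alarmin cytokine. Age, sex, strain and the number of mice are not stated, nor is it said that each replicate was a culture or animal of its own. The p-values therefore speak only to the spread among these 6 libraries, and that spread may be technical. Whether the PBS wells also held HSP90α is not stated.

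Chaperones bind unfolded stretches of other proteins and keep them from clumping. HSP70 proteins do this in cycles of ATP hydrolysis that DNAJ (HSP40) proteins start and nucleotide exchange factors such as HSP110 end, and they hand some clients on to HSP90 through the adaptor Stip1 (HOP). Under heat or other protein damage the transcription factor HSF1 binds heat shock elements in the promoters of inducible members, whereas chaperones of the endoplasmic reticulum (ER) answer to the unfolded protein response. Hsp90aa1 encodes HSP90α, the chaperone that the treatment label names beside irisin, and HSP90α also occurs outside cells.

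The promoter sequences of the 2 members with the lowest p are shown because both hold a heat shock element, the DNA site of HSF1. They are the 250 bases before the RefSeq start site on GRCm38.p6, 5′ to 3′ along the gene, with capitals for each heat shock element, read here as GAA, any 2 bases and TTC, or as TTC, any 2 bases and GAA. Hspb1 has 2 of them. The Hspa1a stretch lies at chr17:34972157-34972406 on the minus strand, and the Hspb1 stretch at chr5:135887669-135887918 on the plus strand.
Hspa1a: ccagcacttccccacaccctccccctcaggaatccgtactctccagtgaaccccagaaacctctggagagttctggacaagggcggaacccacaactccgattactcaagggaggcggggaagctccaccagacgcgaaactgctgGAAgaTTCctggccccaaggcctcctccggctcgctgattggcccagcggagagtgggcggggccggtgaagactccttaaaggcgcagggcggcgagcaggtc
Hspb1: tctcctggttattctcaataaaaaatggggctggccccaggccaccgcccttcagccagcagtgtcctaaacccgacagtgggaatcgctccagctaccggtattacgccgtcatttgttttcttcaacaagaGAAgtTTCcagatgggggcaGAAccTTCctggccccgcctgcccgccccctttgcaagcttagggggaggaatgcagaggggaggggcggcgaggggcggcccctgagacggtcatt

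The next sites, at most 30 bases each, show the same element in other members and, for 3 members of the ER, the ER stress element, read as CCAAT, any 9 bases and CCACG, or the reverse complement of that, with its fixed letters in capitals. The Hspd1 site is at chr1:55088053-55088082, and the same bases read on the other strand are the Hspe1 site, since these genes start head to head. Hspa1b (chr17:34959327-34959350), Hsph1 (chr5:149636354-149636377), Dnaja1 (chr4:40722336-40722359) and Dnajb4 (chr3:152193846-152193867) have a heat shock element. Hspa5 (chr2:34772020-34772048), Hsp90b1 (chr10:86705633-86705661, the farther of its 2 sites) and Dnajc3 (chr14:118937822-118937850) have the ER element. Annotated exons cover all bases of the Hspd1 and Hspe1, Dnaja1 and Hspa5 sites and 23 of 24 bases of the Hsph1 site. They cover no base of the other sites listed. Dnaja1, Dnajb4 and Hspd1 have more than 1 start site, and only 1 window of each held the heat shock element. The Dnajb4 site lies within the annotated span of the gene.
Hspa1b: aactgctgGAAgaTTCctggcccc
Hsph1: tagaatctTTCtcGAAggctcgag
Hspd1: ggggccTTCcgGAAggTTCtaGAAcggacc
Dnaja1: agcctctaGAAaaTTCtacgaggc
Dnajb4: gttcgctgTTCtaGAAagtaca
Hspa5: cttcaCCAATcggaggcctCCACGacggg
Hsp90b1: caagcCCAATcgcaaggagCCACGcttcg
Dnajc3: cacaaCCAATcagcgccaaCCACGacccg

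Windows of 250 bases before to 50 after the start were found for 63 of the 80 members. Among the 14 members listed as heat-inducible and cytosolic, 11 had a window, and 7 of these (63.6%) held a heat shock element of 2 units in either order, each of which reads the same on both strands. In the other tested members 9 of 44 (20.5%) did, and 14.1% of all genes tested did (17% of all genes with a window). The longer form with 3 alternating units, each 2 bases from the next, searched on both strands, occurred in 4 of 55 tested members (7.27%) and in 0.617% of genes tested. The 4 were Hspd1, Hspe1, Hsph1 and Dnajb6, where Hspd1 and Hspe1 each count the same shared site. The Hsph1 match does not lie wholly before the start and is not the Hsph1 site shown above. Each 3-unit match also contains matches of the 2-unit form. The ER stress element, a search added after seeing the data, occurred in 3 of 55 tested members (5.45%), all of them on the ER list, and in 0.17% of genes tested. The windows of Stip1 and Dnajb1 held neither form. The heat-inducible and ER lists group genes by known function and were drawn up with earlier results of these data known. Their shares are therefore a description. Matches describe letters only, and binding was not measured.

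The cells carried the markers of stroma. Levels here are in CPM, counts scaled to library size. The summed level of 8 stromal markers was 36700 to 44320 CPM in PBS and 50350 to 55320 CPM in irisin, with Pdgfra and Col1a1 higher and Lum and Thy1 lower. The 8 adipocyte markers summed to 639 to 1084 CPM in PBS and 146 to 199 CPM in irisin, with Lep at 0, and 6 of the 6 tested passed as lower at an adjusted p of 0.05. Macrophage markers (71.2 to 88.4 CPM in PBS, 71.7 to 92.7 CPM in irisin) and mesothelial markers (34.98 to 41.5 and 38.6 to 49.96 CPM) overlapped between groups, the latter carried by Wt1 with Msln at 0 in PBS. The macrophage sum was mostly Csf1r, at 59.7 CPM in PBS and 59.2 CPM in irisin on average. Ptprc averaged 0.31 and 0.17 CPM, Mrc1 0.41 and 0.22 CPM, and Adgre1 0.49 and 0.52 CPM. Endothelial markers summed to 35.7 to 42.5 CPM in PBS and 20.7 to 29.0 CPM in irisin, mostly Tek, and lymphocyte markers to at most 0.480 CPM, with Cd3e, Cd3d and Nkg7 at 0. In bulk RNA, fewer cells of a type and less RNA per cell cannot be told apart, and the part of these shifts in the chaperone results was not tested.

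Libraries of the same group differed, and PBS replicate 3 and irisin replicate 1 stood apart from the rest. Total counts ran from 5271309 to 6745799 per library, and mitochondrial transcripts from 0.846% to 0.916%. On the second principal component of all genes tested (23.9% of variance) PBS replicate 3 lay at -29.6 and irisin replicate 1 at -17.2, and the other 4 libraries lay from 8.59 to 15.5. PBS replicate 3 was 0.51 higher in log2 level than the mean of the other PBS libraries for Hspa5, 0.39 for Hsp90b1 and 0.37 for Hspa8, and irisin replicate 1 was higher by 0.26, 0.10 and 0.20 for the same genes. For Dnajb11 the values were -0.55 and -0.71, and for Hsp90ab1 -0.47 and -0.29. These genes do not stand for all members. Of the 68 tested members, 40 deviated with the same sign in both libraries, and the rest with opposite signs. Among the latter were Hspa12a (-0.37 in PBS replicate 3 and 0.32 in irisin replicate 1) and Dnajb3 (0.35 and -0.39).

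Most chaperone genes did not pass the test. Of 68 tested members, 5 passed an adjusted p of 0.05 (7.35%), against 7.42% of all genes tested, so the share of calls was that of the background. In 4 of the 5 the level was lower with irisin, namely Hspa1a, Hspb1, Hsph1 and Dnajb1, and in 1, Stip1, it was higher. Lower calls made up 5.88% of the members and 3.22% of all genes, and higher calls 1.47% and 4.2%. The median log2 fold change (irisin against PBS, here LFC) was 0.01 over the members and -0.01 over all genes tested, and 35 members lay above 0 and 33 below. Every irisin library lay below every PBS library in 13 members (19.1%; the share over all genes tested was 11.5%), and in 5 wholly above (7.35%, against 12.1%). In either direction, 23.6% of all genes tested had groups that did not overlap. Scaling by total counts alone gave 0 higher and 7 lower members, and 422 higher and 602 lower genes in all in place of 516 and 396. Adjusted p-values were obtained with edgeR (quasi-likelihood, Benjamini-Hochberg) across the 12296 genes.

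Without PBS replicate 3 and irisin replicate 1, left out after seeing the data, 12 members passed, 3 as higher (Stip1, Dnajc10 and Dnajc3) and 9 as lower. The 9 were Hspa1a, Hspb1, Dnajb1, Hspa8, Hspd1, Dnajb4, Dnajc11, Hspa4 and Hspb8, and Hsph1 was no longer called (adjusted p = 0.176). In all, 1680 genes then passed, against 912 with every library in.

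**Figure D1:**
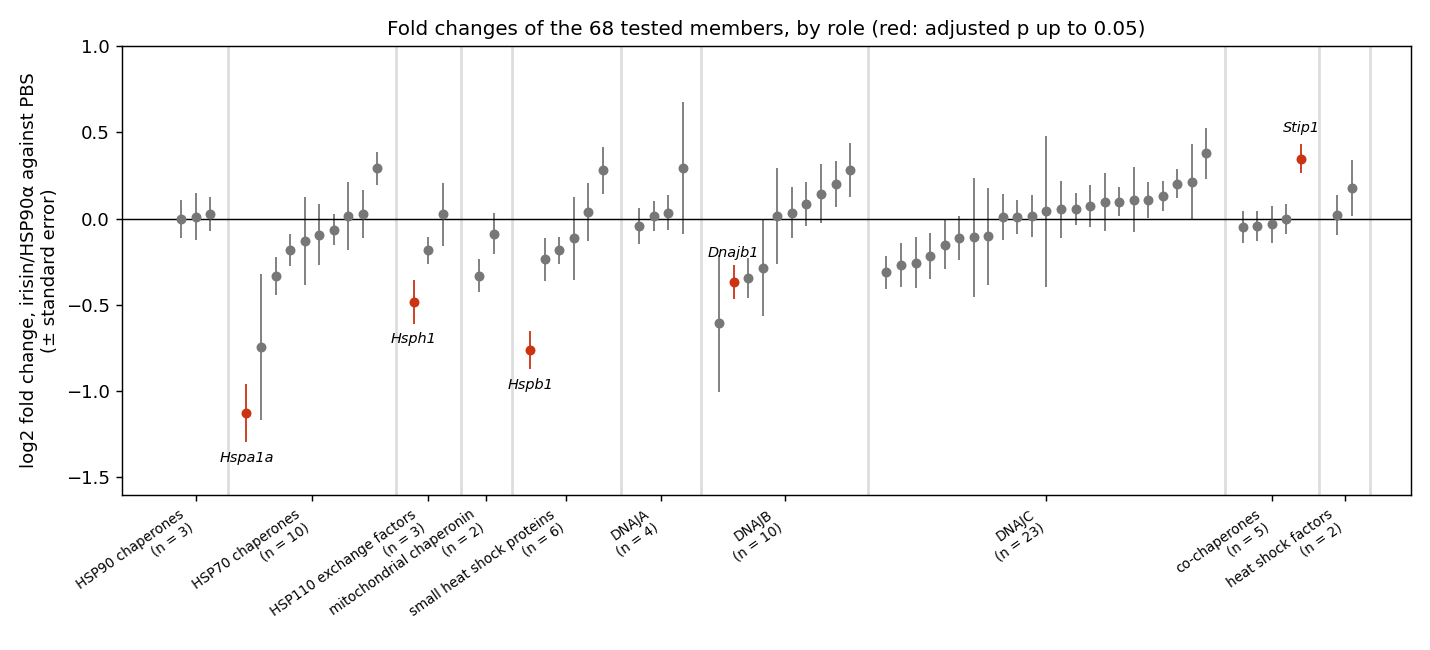
Log2 fold change of irisin/HSP90α against PBS (vertical axis) for each of the 68 tested members, grouped by role along the horizontal axis, with bars of 1 standard error. Red points passed an adjusted p of 0.05: Hspa1a, Hspb1, Hsph1 and Dnajb1 lie below 0 and Stip1 above, and the other 63 members are grey.

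Behind each level, 1 CPM stood on 5.17 to 6.89 counts. All members together held between 1.16% and 1.40% of the counts of a library. To compare levels between genes, CPM was divided by the kilobases of annotated exon, joined over all transcripts of a gene. Long annotated transcripts that are little used lower a gene's value, so the order depends on the annotation. On that scale Hsp90b1 (484 ± 78.7 CPM per kilobase in PBS, SD, n = 3), Hsp90ab1 (473.5 ± 90.5) and Hspa5 (447 ± 95.6) were highest and did not differ from each other beyond their spread. Hspa8, the constitutive HSP70 of the cytosol, followed at 327 ± 50.2, and Hspb8, a small heat shock protein that works with Bag3 in autophagy of damaged proteins, at 192.5 ± 6.29. The order from there was Hspa9 (118 ± 8.75), Stip1 (107 ± 7.48), Hspb1 (97.1 ± 12.8) and Dnaja2 (97.0 ± 9.27). The last 3 overlapped within 1 SD, and Hspa9 overlapped Stip1 and Hspb1 within 1 SD as well. With irisin Stip1 stood at 136 ± 4.42 and Hspb1 at 57.3 ± 1.06 on the same scale. Of the 50-base windows in Hspa8 transcripts, 38.6% also occur in transcripts of other genes. The share was 3.44% for Hsp90ab1, 2.96% for Hsp90b1 and 0% for Hspa5. The part of shared reads in this order was not tested.

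**Figure D2:**
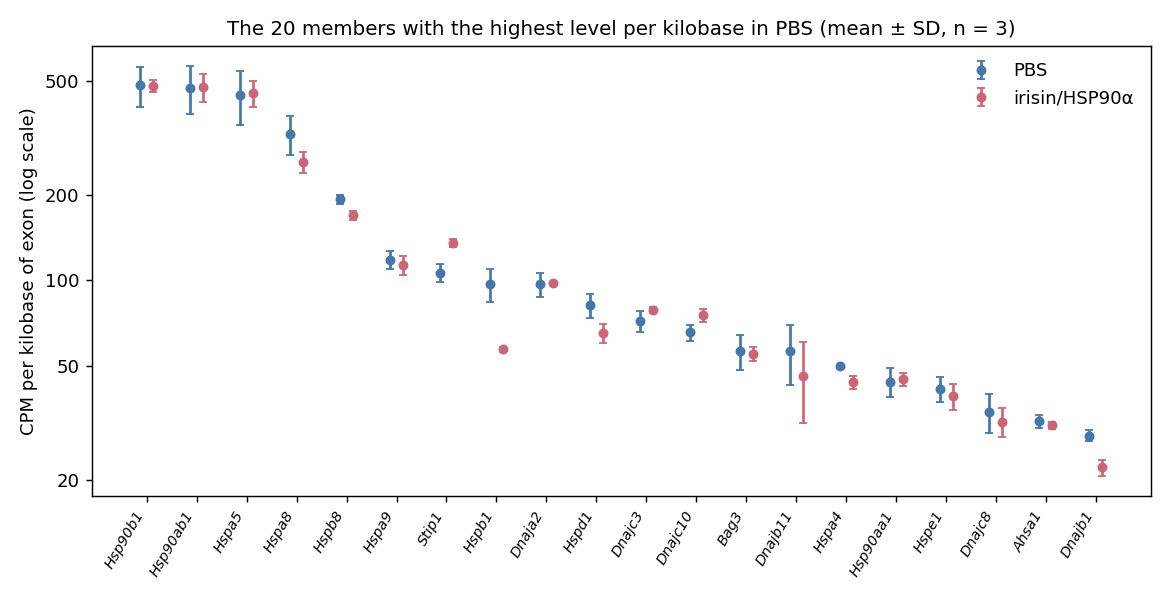
Level in CPM per kilobase of annotated exon (log axis) of the 20 members highest on that scale in PBS, as mean ± SD over 3 libraries for PBS (blue) and irisin/HSP90α (red). Hsp90b1, Hsp90ab1 and Hspa5 lead in both groups, and Hspb1 and Stip1 show groups that stand apart.

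The HSP70 gene Hspa1a, which encodes the inducible HSP70 of the cytosol, had the largest change of any tested member. Its level was 27.6, 34.4 and 30.9 CPM in PBS replicates 1, 2 and 3, and 16.2, 15.3 and 11.2 CPM in irisin replicates 1, 2 and 3. All irisin libraries lay below all PBS libraries, and the level fell 2.18-fold (LFC -1.13 ± 0.17 SE, adjusted p = 0.000759). Its twin Hspa1b encodes nearly the same protein, and 58.8% of the 50-base windows in Hspa1a transcripts also occur in Hspa1b. The authors' counting could therefore divide reads between them. Hspa1b was low, at 8 to 28 counts per library, and did not pass (LFC -0.75 ± 0.42, adjusted p = 0.401). The sum of both genes was 33.9 ± 4.45 CPM in PBS and 15.9 ± 3.01 CPM in irisin (SD, n = 3). The sum covers only reads that were assigned to either gene. Upstream of the start site the 250-base stretches of the twins are 98.8% identical, and both carry the element shown above at 96 to 104 bases before the start.

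Of the 10 tested HSP70 genes only Hspa1a passed. Hspa8 had 1262, 1300 and 1653 CPM in PBS and 1222, 1046 and 1083 CPM in irisin. The groups did not overlap, but the highest value, PBS replicate 3, stood far from the other PBS libraries, and the gene did not pass (LFC -0.33 ± 0.11, adjusted p = 0.104). Without PBS replicate 3 and irisin replicate 1, a choice made after the data were seen, it passed as lower (adjusted p = 6.07e-05), as it did with limma-voom (0.0346), total counts alone (0.0444) and no low-count filter (0.00376). With 1 library left out at a time, Hspa8 was called in 0 fits (adjusted p 0.0892 to 0.369). Hspa13, an HSP70 of the ER, had 93.0, 95.7 and 88.4 CPM in PBS and 119, 102 and 118 CPM in irisin, with no overlap (LFC 0.29 ± 0.10, adjusted p = 0.10). Hspa5, the main ER HSP70 (BiP), overlapped between groups at 1667, 1647 and 2357 CPM in PBS and 2157, 1809 and 1799 CPM in irisin (LFC 0.02 ± 0.14, adjusted p = 0.960). Hspa9, the mitochondrial HSP70 (mortalin), overlapped as well (510 and 487 CPM on average, LFC -0.06 ± 0.09, adjusted p = 0.803). The other HSP70 genes tested (Hspa2, Hspa12a, Hspa12b and Hspa14) did not pass.

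HSP110 proteins release nucleotide from HSP70 and pull apart aggregates with it. Hsph1 had 97.5, 121 and 125 CPM in PBS and 80.3, 70.9 and 93.8 CPM in irisin. The nearest libraries of the groups, PBS replicate 1 and irisin replicate 3, were close together, yet all irisin values lay below all PBS values. Hsph1 fell 1.40-fold (LFC -0.48 ± 0.13, adjusted p = 0.0342). The call was lost without PBS replicate 2 (adjusted p = 0.129), irisin replicate 1 (0.0950) or irisin replicate 2 (0.184). Hspa4 did not pass (276 to 243 CPM on average, LFC -0.18 ± 0.08, adjusted p = 0.236), and Hspa4l, the third of the group, lay at LFC 0.02 ± 0.18.

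Small heat shock proteins hold unfolded proteins without using ATP. Hspb1 (HSP25 in mouse, HSP27 in human), which also binds actin, had 107, 108 and 84.9 CPM in PBS and 58.3, 58.8 and 60.3 CPM in irisin. The irisin libraries were nearly equal, and the lowest PBS library, replicate 3, was still well above them. Hspb1 fell 1.70-fold (LFC -0.76 ± 0.11, adjusted p = 0.000685). Its transcripts share 48.8% of their 50-base windows with the pseudogene Hsp25-ps1, to which the table gives 2 to 6 counts per library, against 304 to 738 for Hspb1. The other 5 tested members (Hspb2, Hspb6, Hspb7, Hspb8 and Hspb11) did not pass. Hspb8, the most abundant of the Hspb members, had 369, 368 and 390 CPM in PBS and 343, 319 and 329 CPM in irisin, without overlap (LFC -0.18 ± 0.08, adjusted p = 0.223). Cryab, a small heat shock protein gene whose symbol the member rule does not match, averaged 409 CPM in PBS and 334 CPM in irisin. Its groups did not overlap, and it did not pass (LFC -0.29 ± 0.09, adjusted p = 0.0615).

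Hspd1 and Hspe1 encode HSP60 and HSP10, the barrel and lid of the mitochondrial chaperonin. These genes share the heat shock element at chr1:55088053-55088082, which lies within annotated exons. Hspd1 had 197, 215 and 238 CPM in PBS and 186, 160 and 171 CPM in irisin. Its groups did not overlap, and it came just short of the threshold (LFC -0.33 ± 0.10, adjusted p = 0.0590). It passed as lower with total counts alone (adjusted p = 0.0230), with limma-voom (0.0247) and with no low-count filter (0.0217). With 1 library left out at a time, Hspd1 was called in 0 fits (adjusted p 0.0597 to 0.276). Hspe1 overlapped at 61.7, 67.5 and 55.1 CPM in PBS and 59.5, 51.0 and 62.7 CPM in irisin (LFC -0.09 ± 0.12, adjusted p = 0.796). The difference between the fold changes of this pair was not tested. Reads of the pair can overlap on 112 exon bases, and Hspd1 shares 39.7% of its 50-base windows with other transcripts, mostly pseudogenes.

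**Figure D3:**
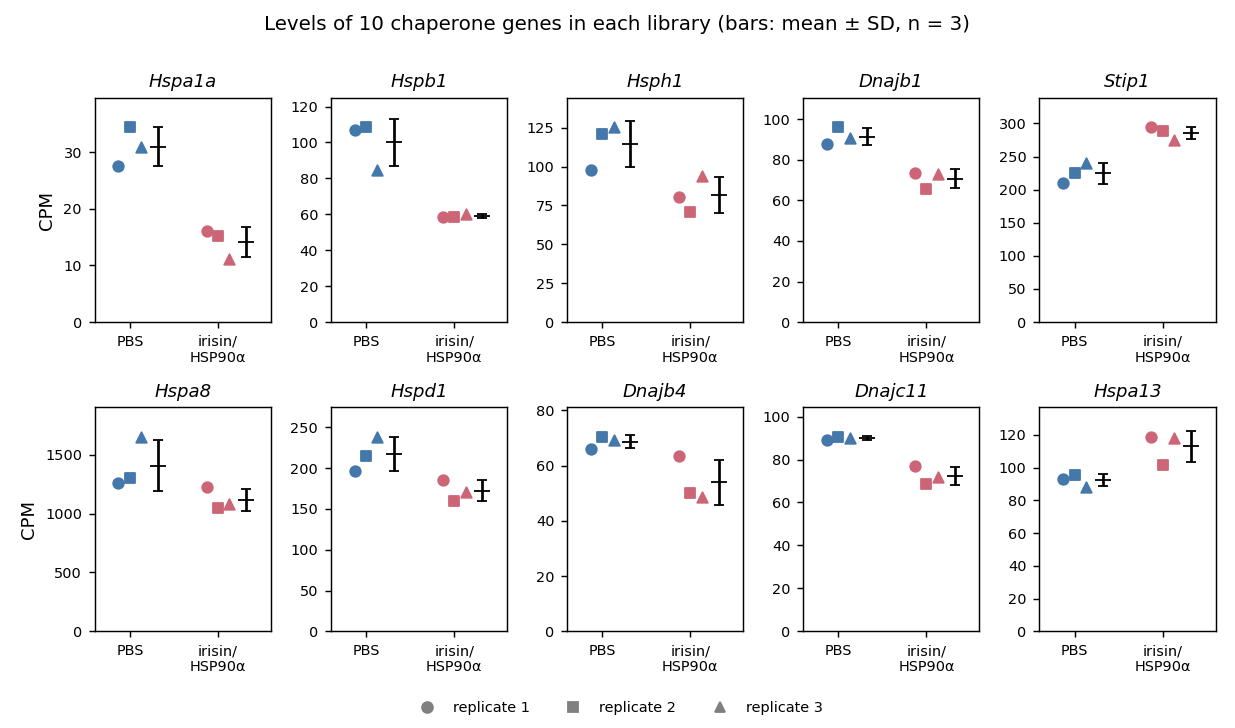
Level in CPM (each vertical axis starts at 0) of 10 members in each of the 3 PBS (blue) and 3 irisin/HSP90α (red) libraries, with marker shape for the replicate number and black bars for mean ± SD. Hspa1a, Hspb1, Hsph1 and Dnajb1 passed as lower and Stip1 as higher, and Hspa8, Hspd1, Dnajb4, Dnajc11 and Hspa13 had groups that did not overlap but did not pass.

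DNAJ proteins bring clients to HSP70 and start its ATP hydrolysis. Of 37 tested (4 DNAJA, 10 DNAJB and 23 DNAJC genes), 1 passed, where 7.42% of all genes tested did. Dnajb1, the cytosolic HSP40 that pairs with inducible HSP70, had 87.8, 96.0 and 90.6 CPM in PBS and 73.8, 65.5 and 73.1 CPM in irisin. The groups were well apart, and Dnajb1 fell 1.29-fold (LFC -0.37 ± 0.10, adjusted p = 0.0370). Its call held without PBS replicate 3 (adjusted p = 0.0230) and was lost without PBS replicate 1 (0.0870), PBS replicate 2 (0.152), irisin replicate 1 (0.0636), irisin replicate 2 (0.197) or irisin replicate 3 (0.108). With DESeq2 it came to an adjusted p of 0.0582.

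Dnajb4, a close relative of Dnajb1, had 66.2, 70.5 and 69.4 CPM in PBS and 63.4, 50.05 and 48.7 CPM in irisin (LFC -0.34 ± 0.12, adjusted p = 0.115). Irisin replicate 1 lay near the PBS libraries, and without it Dnajb4 was called. Dnajc11, a mitochondrial membrane protein, had the lowest p among the DNAJC genes, with 89.0, 90.6 and 90.2 CPM in PBS and 76.97, 68.4 and 71.8 CPM in irisin (LFC -0.31 ± 0.09, adjusted p = 0.0677). Dnajc10 (ERdj5), a disulfide reductase of the ER, lay above PBS in all irisin libraries, with 391, 388 and 355 CPM against 311, 323 and 352 CPM, and did not pass (LFC 0.20 ± 0.08, adjusted p = 0.217). It passed as higher without PBS replicate 3 (adjusted p = 0.0344) and in no other fit with 1 library left out (up to 0.512). Dnaja1, which pairs with HSP70 in the cytosol, overlapped between groups (188 and 182 CPM, adjusted p = 0.898), as did Dnaja2 (289 and 292 CPM on average) and the unfolded protein response target Dnajb9 (69.9 and 80.4 CPM, adjusted p = 0.509). Dnajb11, an ER partner of BiP, varied within both groups, at 225, 184 and 139 CPM in PBS and 104, 147 and 198 CPM in irisin.

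Further members had groups that did not overlap without passing the test. Dnajc30, a mitochondrial J protein tied to complex I repair, had 15.1, 15.5 and 14.5 CPM in PBS and 20.6, 19.7 and 18.4 CPM in irisin (LFC 0.38 ± 0.15, adjusted p = 0.171), the highest LFC of any member. Dnajb12, a J protein of the ER membrane, averaged 21.8 CPM in PBS and 26.6 CPM in irisin (LFC 0.28 ± 0.16, adjusted p = 0.383). With irisin below PBS stood Hspa14, an HSP70 relative at the ribosome (92.8 and 81.8 CPM on average), Dnajc15, a J protein of the inner mitochondrial membrane (25.7 and 21.4 CPM), and Dnajc27, a small GTPase with a J domain (16.96 and 14.2 CPM). Their adjusted p-values ran from 0.302 to 0.420. Dnajc3, which restrains the kinase PERK in the ER, had overlapping groups at 348, 355 and 407 CPM in PBS and 415, 395 and 404 CPM in irisin (LFC 0.13 ± 0.09, adjusted p = 0.499).

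None of the 3 HSP90 genes passed, by edgeR (0 at an unadjusted p under 0.05), DESeq2 or limma-voom. Hsp90aa1 had 177, 192 and 152 CPM in PBS and 167, 186 and 178 CPM in irisin, and the 95% interval of its LFC ran from -0.19 to 0.24. For Hsp90ab1, the constitutive HSP90β, the levels were 1464, 1666 and 1129 CPM in PBS and 1247, 1506 and 1538 CPM in irisin (interval -0.29 to 0.31). For Hsp90b1, the ER form GRP94, they were 1749, 1787 and 2316 CPM in PBS and 2037, 1858 and 1942 CPM in irisin (interval -0.24 to 0.23). The intervals leave room for differences of that size in either direction, so the test does not show equal levels. Of Hsp90aa1 transcripts, 47.5% of the 50-base windows occur in other transcripts, mostly pseudogenes.

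**Figure D4:**
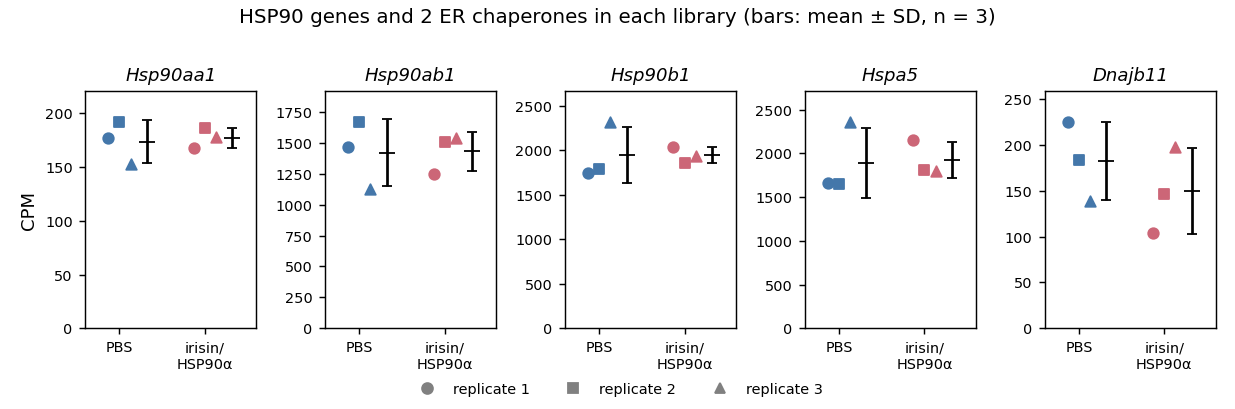
Level in CPM (axes start at 0) of Hsp90aa1, Hsp90ab1, Hsp90b1, Hspa5 and Dnajb11 in each library, with marker shape for the replicate number and black bars for mean ± SD over 3 libraries. The groups overlap in all 5 genes, and PBS replicate 3 is the lowest PBS library for Hsp90ab1 and Dnajb11 and the highest for Hsp90b1 and Hspa5.

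Among co-chaperones, Stip1 (HOP), which passes clients from HSP70 to HSP90, was the only member to pass as higher. It had 209, 224 and 241 CPM in PBS and 294, 288 and 276 CPM in irisin. The lowest irisin library was above the highest PBS library, and Stip1 rose 1.27-fold (LFC 0.35 ± 0.08, adjusted p = 0.0233). The call held without PBS replicate 3 (adjusted p = 0.00139) and was lost without PBS replicate 1 (0.139), PBS replicate 2 (0.0848), irisin replicate 1 (0.0826), irisin replicate 2 (0.118) or irisin replicate 3 (0.0728). It was lost too when libraries were scaled by total counts alone (adjusted p = 0.0834). Ahsa1, which speeds the ATPase of HSP90 (LFC -0.04 ± 0.08), Cdc37, which brings kinases to HSP90 (-0.05 ± 0.09), St13, an HSP70 partner (0.00 ± 0.09), and Bag3, which links HSP70 to autophagy (-0.03 ± 0.11), did not pass. Their adjusted p-values ran from 0.872 to 0.991.

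The factors that drive the heat shock response did not pass at the RNA level. Hsf1 had 52.7, 57.4 and 45.5 CPM in PBS and 55.2, 50.8 and 51.7 CPM in irisin (LFC 0.02 ± 0.11, adjusted p = 0.962). Hsf2 had 15.8, 15.9 and 16.9 CPM in PBS and 19.0, 20.9 and 15.1 CPM in irisin (LFC 0.17 ± 0.16, adjusted p = 0.671). HSF1 is controlled mainly at the protein level, which was not measured.

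By compartment, the calls lay in the list of 14 heat-inducible cytosolic members, where 4 passed as lower (28.6%, against 3.22% of all genes tested) and 1, Stip1, as higher. The list held Hspa1a, Hspa1b, Hspa8, Hsph1, Hspa4l, Hsp90aa1, Hsp90ab1, Dnaja1, Dnajb1, Dnajb4, Hspb1, Bag3, Stip1 and Ahsa1. It thus includes Hspa8 and Hsp90ab1, described above as constitutive. The median LFC of the list was -0.19, against -0.01 over all genes, and 10 of 14 lay below 0. The members with irisin wholly below PBS were 6 of 14 (42.9%), Hspa8 among them, against 11.5% of all genes tested. None of the 10 ER-resident members passed, where 7.42% of all genes tested did, and their median LFC was 0.14, with 8 of 10 above 0 and 3 (Hspa13, Dnajc10 and Dnajb12) with irisin wholly above PBS, which held for 12.1% of all genes tested. At an unadjusted p under 0.05, 2 of these 10 passed, and DESeq2 and limma-voom called 0. Of the 9 mitochondrial members none passed (median LFC -0.09), with 3 at an unadjusted p under 0.05, 0 called by DESeq2 and 2 by limma-voom (Hspd1 and Dnajc11). These lists group genes by known function but were drawn up with earlier results of these data known, so the counts are a description and no independent evidence of a direction. The difference between the lists was not tested. In the same libraries, immediate early and stress genes moved as well: Fos, Egr1 and Atf3 passed as lower and Junb as higher, of 8 tested. Their summed level overlapped, at 477 to 663 CPM in PBS and 564 to 600 CPM in irisin, and their part in the heat shock calls was not tested.

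Of 83 other genes of the chaperone network, in 4 lists outside the members, 3 passed as higher and 1 as lower (median LFC -0.03), where 4.2% and 3.22% of all genes tested did. In the list of other HSP90 and HSP70 partners, which also took in separate chaperones such as Clu and Cryab, 1 of 26 passed. This was Clu, the secreted chaperone clusterin, with 21.8, 21.9 and 19.3 CPM in PBS and 34.9, 34.6 and 28.6 CPM in irisin (LFC 0.63 ± 0.14, adjusted p = 0.0113). The call was lost without irisin replicate 1 (adjusted p = 0.0510) or irisin replicate 2 (0.0674). None of the 14 genes of the TRiC chaperonin and prefoldin, which fold actin and tubulin, passed (unadjusted p under 0.05 in 0), and with DESeq2, limma-voom and each other setting none was called either. Of 30 ER folding and unfolded protein response genes, Trib3, a pseudokinase induced by ER stress, passed as higher (25.1 ± 1.73 to 34.1 ± 1.27 CPM, adjusted p = 0.0470). Edem1, which sends misfolded glycoproteins to degradation, passed as lower (79.5 ± 9.87 to 57.7 ± 7.47 CPM, adjusted p = 0.0423). Trib3 lost its call without any of the 6 libraries in turn (adjusted p 0.0671 to 0.151). Edem1 lost it without any of the 3 PBS libraries, irisin replicate 2 or irisin replicate 3 (0.0510 to 0.205). Of 13 mitochondrial folding and protease genes, Yme1l1, an inner membrane protease, passed as higher (148 ± 17.0 to 193 ± 14.9 CPM, adjusted p = 0.0367), a call lost without PBS replicate 1, PBS replicate 2 or any irisin library (0.0772 to 0.176).

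**Figure D5:**
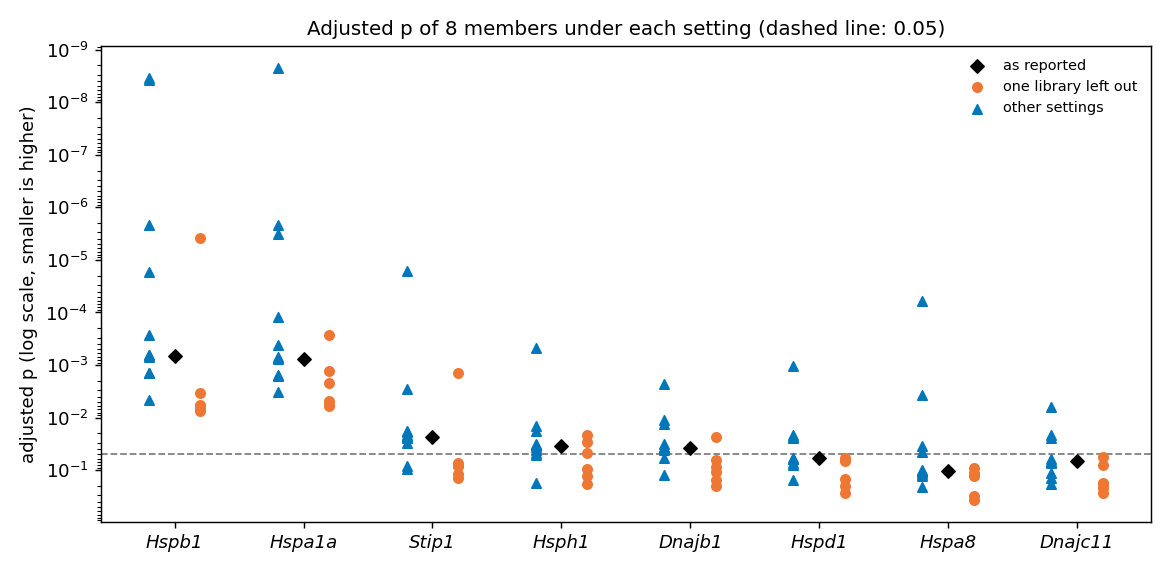
Adjusted p (log axis, smaller values higher) of 8 members with all libraries (black), with 1 library left out (orange) and under the other settings (blue), with a dashed line at 0.05. Hspb1 and Hspa1a stay above the line under each setting, and the other 6 members have settings on both sides of it.

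On GRCm38 in GENCODE M21, Hspa1a lies on chromosome 17 from 34969190 to 34972156, Hspb1 on chromosome 5 from 135887919 to 135889563, and Hsph1 on chromosome 5 from 149614287 to 149636376. Dnajb1 lies on chromosome 8 from 83608193 to 83612653 and Stip1 on chromosome 19 from 7020702 to 7039967. All 5 are annotated as protein-coding, and each count covers a whole gene, without telling its exons, introns or UTRs apart. Gm20481 on the opposite strand covers 564 exon bases of Hspa1a, and the other 4 share no exon base with another gene.

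The 12 untested members were low throughout, at no more than 13 counts in any library. Among them were Dnajb7, Dnajb8, Dnajb13, Dnajc5b, Dnajc5g, Dnajc6, Dnajc12, Dnajc22, Hspa1l, Hspb3 and Hspb9, several of them genes of testis, muscle or nerve. Hspb3, a small heat shock protein of muscle, and Dnajc5b had 0 counts of 36562506 in the 6 libraries, which allows up to 0.0821 CPM each (3 counts, counting error only).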

How the data were processed

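Polyadenylated RNA of 3 PBS and 3 irisin libraries was analysed. The deposited values are raw counts, whole numbers for each of 55011 gene symbols, which the authors did not normalize. STAR 2.7.3a, featureCounts and build mm10 are named in the submitters' processing notes, and the annotation, strand setting and multi-mapping rule were not given in the sources used here. Groups and replicate numbers came from sample titles. From these counts, edgeR 4.0.16 in R 4.3.3 applied TMM factors (0.969 to 1.03), a filter at a count minimum of 10 (filterByExpr, 12296 of 31436 genes with any count), and its robust quasi-likelihood F test on the group alone, adjusted by Benjamini-Hochberg over all genes tested at 0.05. Levels in CPM divide by the TMM-scaled library sum of tested genes. The members and lists were chosen with earlier results of these data known. Named members were those past the threshold, the 12 with the highest mean CPM, a fixed set of well-known members and the lowest p of each list, plus up to 4 called genes per network list. Others named were chosen after their values were seen.

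DESeq2 1.42.0 and limma-voom (limma 3.58.1, with quality weights) were run as other tests. Settings changed one at a time were the scaling (upper quartile, RLE or total counts alone), no robust dispersion, no filter, a count minimum of 50, the replicate block, each library left out, an adjusted p of 0.10, mitochondrial and ribosomal protein genes left out, and 2 libraries left out together (added after seeing the data). In simulated data for irisin against PBS (12124 genes), the share of changed genes recovered was 32.7% for a 1.5-fold change, 70.8% for 2-fold and 100% for 4-fold. False calls made up 20 of 165. Promoter windows came from RefSeq (GRCm38.p6), exon lengths and transcripts from GENCODE M21. Within groups, counts of any 2 libraries differed by more than sampling noise (chi-square over its degrees of freedom 2.71 to 14.5).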

Additional observations from a re-analysis of the deposited data

How the results depend on the processing

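Hspa1a and Hspb1 were called as lower under all 18 alternatives run, with log2 fold changes of -1.24 to -0.97 and -0.86 to -0.70. Dnajb1 and Stip1 each lost the call under 7 of 18 and Hsph1 under 5 of 18, with the direction kept in each. For all other changes below the cause was not tested. Leaving out 1 library at a time gave 2 to 6 called members (0 to 2 higher, 2 to 4 lower, 2 to 4 lower in the heat-inducible list), 0 to 4 higher and 0 to 2 lower genes in the network lists, and 589 to 1290 genes in all (336 to 705 higher, 238 to 585 lower). With the replicate number as a block (replicate block), 2 members were called, both lower (Hspa1a and Hspb1), 0 higher, and 1 higher and 0 lower in the network lists. Deviations of same-numbered libraries from their group means correlated at -0.238, 0.164 and -0.177 for replicates 1, 2 and 3. For PBS replicate 3 with irisin replicate 1 the correlation was 0.36. With 3 libraries a group, these values cannot decide whether the numbers pair the samples. Total counts alone gave 7 lower and 0 higher members, 1 higher and 3 lower network genes and 602 lower genes in all, with the median over all genes shifted from -0.01 to -0.09. With limma-voom 9 members were called, 8 of them lower, with 3 lower network genes and 623 lower genes in all. Lower network genes numbered 0 with no robust dispersion, 2 with no low-count filter and 3 at an adjusted p of 0.10. Without PBS replicate 3 and irisin replicate 1 there were 12 called members (3 higher, 9 lower), 6 lower network genes and 1680 genes in all (892 higher, 788 lower). Members with log2 fold changes near 0, none of them called in these fits, changed sign as follows. With total counts alone the value was -0.062 for Dnaja2, -0.058 for Hsf1, -0.051 for Hsp90aa1, -0.067 for Hsp90ab1 and -0.054 for Hspa5. With limma-voom it was -0.021 for Dnaja2, -0.040 for Hsf1, -0.0025 for Hsp90aa1, -0.027 for Hsp90ab1, 0.069 for Hsp90b1 and 0.024 for St13. A count minimum of 50 gave 0.0029 for Hsp90b1 and 0.0026 for St13, the replicate block 0.0075 for Hsp90b1, and no low-count filter -0.00096 for Hsp90ab1. Without both libraries the values were -0.052 for Dnaja2, -0.098 for Hsf1, -0.015 for Hsp90aa1, -0.037 for Hsp90ab1, 0.11 for Hsp90b1 and 0.032 for St13. With 1 library left out the ranges were -0.13 to 0.072 for Bag3, -0.11 to 0.030 for Cdc37, -0.14 to 0.048 for Dnaja1, -0.049 to 0.085 for Dnaja2, -0.061 to 0.098 for Hsf1, -0.054 to 0.10 for Hsp90aa1, -0.13 to 0.14 for Hsp90ab1, -0.075 to 0.14 for Hsp90b1, -0.067 to 0.22 for Hspa5, -0.12 to 0.0018 for Hspa9 and -0.051 to 0.071 for St13. In simulated data with 3 libraries a group, 32.7% of 1.5-fold and 70.8% of 2-fold changes were recovered, so genes that did not pass are not shown to be equal.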
